A study of Mus musculus with 6 samples.

Results

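The genes described here are those that T cells switch on when their antigen receptor (the TCR) is engaged: the nuclear receptors Nr4a1, Nr4a2 and Nr4a3, the zinc-finger factors Egr1, Egr2 and Egr3, the factors Irf4 and Myc, and the surface proteins Cd69 and Cd5. They were taken by symbol from the deposited tables, where each of the 10 matched 1 identifier, out of 21899 genes listed. All 10 had enough counts to be tested, among 12768 tested genes. Bulk mRNA sequencing was done on 6 libraries of induced regulatory T cells (iTregs), 3 from Dlst-Treg iKO mice (KO) and 3 from iWT mice (WT). The gene Dlst codes for a core enzyme subunit of 2-oxoglutarate dehydrogenase, a complex of the TCA cycle. In both genotypes, splenic CD4+ T cells were held under Treg-polarising conditions for 2 days with 4-hydroxytamoxifen, the agent that switches on tamoxifen-inducible Cre, and cells positive for CD4, FoxP3-GFP and tdTomato were sorted. The sources used here do not give the promoter that drives Cre, the age of the mice or any pooling. Since the labels do not say that each library came from separate mice or cultures, p-values measure the spread between these libraries, which may in part be technical.

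When the TCR is engaged, calcium acts through calcineurin and NFAT, and Ras acts through ERK. Both routes switch on Nr4a and Egr genes within the first wave of transcription. NR4A proteins are nuclear receptors that act without a known physiological ligand, and in mouse thymus they help to induce Foxp3. EGR1 promotes activation, whereas EGR2 and EGR3 also drive inhibitors of TCR signalling. IRF4 rises with the strength of the signal and is needed for effector Treg cells, MYC drives growth, CD69 holds cells in tissue by removing the receptor S1PR1, and CD5 restrains the TCR.

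Libraries held 33590510 to 49772670 estimated counts in KO and 35647816 to 47526481 in WT. Among the defining genes, Cd4 lay between 432 and 465 CPM (counts scaled by TMM library sizes) in KO and between 506 and 522 CPM in WT, and Foxp3 between 207 and 231 CPM in KO and between 154 and 202 CPM in WT. Dlst, the targeted gene, averaged 128 ± 2.33 CPM in KO and 153 ± 6.86 CPM in WT (SD, n = 3 each). On the log2 scale Dlst differed by -0.26 (SE 0.05, edgeR adjusted p = 0.0894), with every KO library lower, short of the threshold of 0.05. KO replicate 1 stood apart: it had 4046 counts of the Y-linked gene Ddx3y, against at most 1 in each of the other 5 libraries. The Y-linked genes Eif2s3y and Uty had 4129 and 1412 counts there, against 0 and at most 3.03 elsewhere. Kdm5d, also Y-linked, had 3094 counts there and 29.2 to 41.4 in each of the other 5 libraries. KO replicate 1 thus held male cells and came at least in part from other mice than the rest. Sex was not balanced between the genotypes, and its part in the results was not tested. Summed levels of neutrophil, macrophage, dendritic and CD8 T cell markers were also highest in KO replicate 1. The summed level of 10 neutrophil markers was 302, 76.3 and 74.8 CPM in KO replicates 1 to 3 and 32.5, 9.12 and 5.94 CPM in WT replicates 1 to 3. That of 10 macrophage and monocyte markers was 350.2, 90.3 and 101 CPM in KO and 28.0, 20.8 and 19.6 CPM in WT. All 9 tested neutrophil markers and all 7 tested macrophage markers were higher in every KO library than in every WT library. Over all tested genes this held for 11.9%. The markers of both lists that were not tested overlapped, and no marker of either list was at 0 in all 6 libraries. WT replicate 1 had the highest B cell marker sum, 300.4 CPM, against 121 to 199 CPM in the other 5 libraries. CD8 T cell markers summed to 92.0 to 107 CPM in KO and 47.2 to 84.1 CPM in WT, while NK, dendritic and erythroid marker sums were at most 11.7 CPM in any library. Myeloid and B cells also express Nr4a and Egr genes, and the part of these cells in the results below was not tested. In bulk libraries, fewer cells that express a gene and less RNA per cell cannot be told apart.

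The upstream sequences of the factor genes are shown because those of the 3 NR4A genes have a letter pattern in common. RefSeq promoter windows (GRCm38.p6) were matched for 6 of the 10 genes, with 250 bases before a start. Egr1, Egr3, Cd69 and Myc were not matched. Capitals mark TGACG, the core of the cyclic-AMP response element bound by CREB factors, on either strand, the EGR motif GCGNGGGCG on either strand, and the CArG box bound by SRF. For Nr4a3 the bases shown stop where GENCODE M21 places the first exon. For Nr4a1 and Egr2 the windows shown lie inside the gene as GENCODE M21 places it (from 101254269 and from 67535475). They thus precede a RefSeq start within the gene. Nr4a1 is read from chr15:101266596-101266845, plus strand, Nr4a2 from chr2:57124004-57124253, minus strand, Nr4a3 from chr4:48045055-48045152, plus strand, and Egr2 from chr10:67537619-67537868, plus strand, for 1 of 5 listed starts. Of these, 3 lie close together and tie at 2 TGACG matches, of which the one with the lowest coordinate is shown, and the others have 0.
Nr4a1: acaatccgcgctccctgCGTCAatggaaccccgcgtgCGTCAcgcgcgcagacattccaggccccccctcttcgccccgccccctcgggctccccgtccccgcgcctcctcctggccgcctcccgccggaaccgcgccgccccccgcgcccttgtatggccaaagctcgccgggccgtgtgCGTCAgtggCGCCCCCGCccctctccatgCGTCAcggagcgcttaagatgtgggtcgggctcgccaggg
Nr4a2: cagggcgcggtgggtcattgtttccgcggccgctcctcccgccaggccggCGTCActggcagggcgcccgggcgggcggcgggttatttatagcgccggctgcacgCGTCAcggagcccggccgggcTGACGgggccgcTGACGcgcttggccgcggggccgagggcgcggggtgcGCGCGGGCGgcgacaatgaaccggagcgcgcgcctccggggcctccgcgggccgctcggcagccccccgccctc
Nr4a3: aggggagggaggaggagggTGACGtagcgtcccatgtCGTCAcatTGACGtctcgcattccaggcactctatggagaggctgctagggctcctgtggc
Egr2: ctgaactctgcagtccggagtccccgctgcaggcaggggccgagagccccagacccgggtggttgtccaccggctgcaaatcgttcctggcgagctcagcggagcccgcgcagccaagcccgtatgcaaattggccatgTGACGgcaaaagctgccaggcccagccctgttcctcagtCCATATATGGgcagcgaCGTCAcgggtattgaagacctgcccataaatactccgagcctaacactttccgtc

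Each NR4A window of 250 bases held 4 TGACG matches, the last of those of Nr4a3 lying past the bases shown. The letters stood in 17.8% of all 32851 RefSeq windows of this length, and 4 or more stood in 0.137%. The full element TGACGTCA was not found in any of the 10 windows of the matched genes, and stood in 1.55% of all windows. The Egr2 window shown held 2, where 3.9% of windows held 2 or more, and a CArG box, which stood in 1.47%. The EGR motif was found once each in the Nr4a1 and Nr4a2 windows, against 4.7% of all windows. The letters TGACG were not found in the windows of Cd5 and Irf4. These matches describe the letters of the windows and were not tested against the expression values.

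None of the 10 genes passed the threshold in KO against WT, by the edgeR quasi-likelihood test with p-values adjusted over all genes, where 0.674% of tested genes did (0.454% higher in KO and 0.219% lower). At an unadjusted p under 0.05 there were 5 of the 10, against 15.1% of tested genes, and DESeq2 called Egr3 higher and Cd5 lower, where it called 2.87% of genes higher and 1.29% lower. In CPM, Nr4a1, Nr4a3, Egr1, Egr3 and Myc were above WT in every KO library, and Cd5 and Irf4 were below. Such a lack of overlap held for 11.9% of tested genes upward and 10.9% downward, 22.8% in all. The median log2 fold change of the 10 was 0.03, beside -0.00 over all tested genes. The median size regardless of sign was 0.18, against 0.10 over all tested genes and 0.07 over the 8112 tested genes with a mean of at least 10 TPM (a level scaled by gene length and library total).

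**Figure D1:**
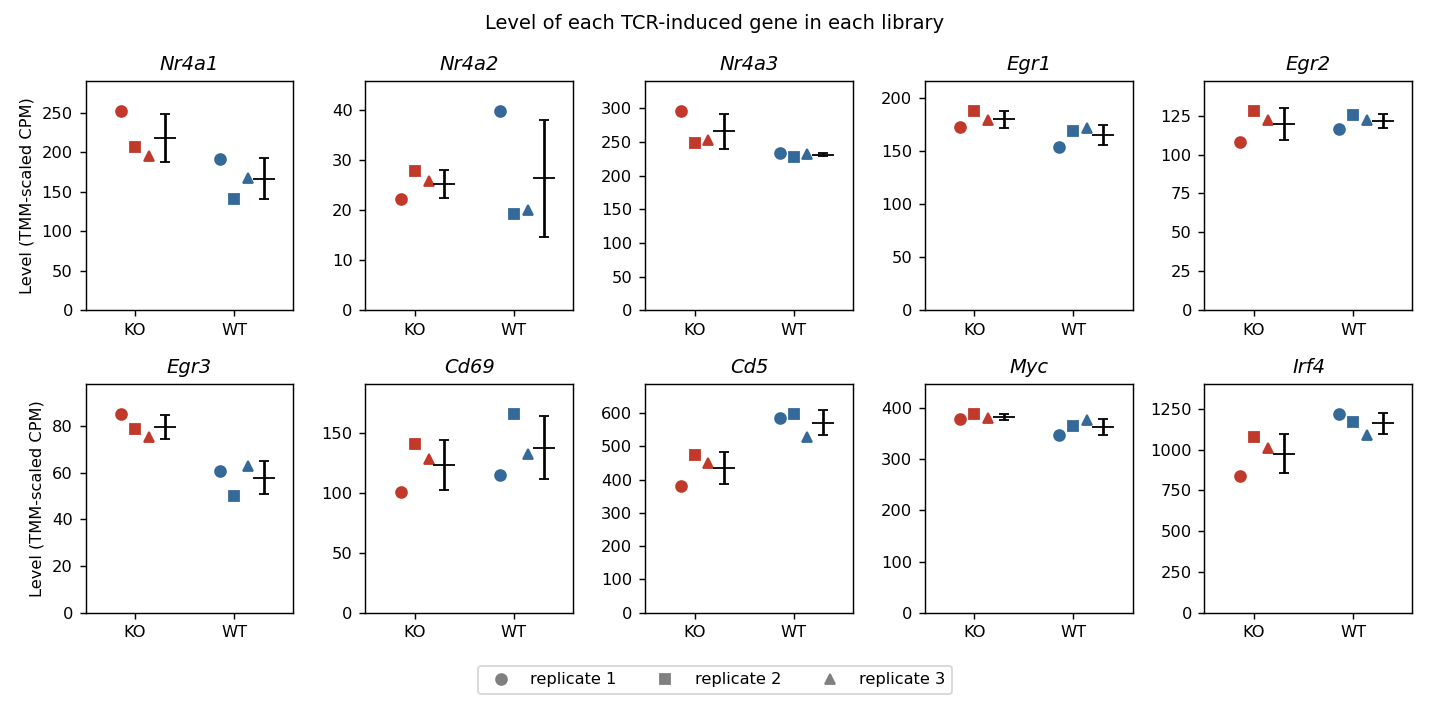
TMM-scaled CPM (linear axes from 0) of the 10 genes in each KO and WT library, with marker shape for the replicate number and the mean ± SD beside the points. Egr3 lay between 75.2 and 85.4 CPM in KO and between 49.8 and 63.1 CPM in WT, while Cd5 lay between 380.2 and 475 CPM in KO and between 527 and 598 CPM in WT.

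Nr4a1 (NUR77), a widely used reporter of TCR signal, is on chromosome 15 (101254269 to 101274795, GENCODE M21, GRCm38). It stood at 252, 206 and 196 CPM in KO replicates 1 to 3 and at 191, 140.1 and 167 CPM in WT replicates 1 to 3. The lowest KO library was thus only slightly above the highest WT library, and KO replicate 1 was the highest of the 6. The log2 fold change of Nr4a1 was 0.39 (SE 0.13, 95% interval 0.08 to 0.71, edgeR adjusted p = 0.247), or 0.28 without KO replicate 1 and 0.50 without WT replicate 1.

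Nr4a3 (NOR1), another TCR-induced member of the family, is on chromosome 4 (48045153 to 48086447). Nr4a3 was at 296, 248 and 254 CPM in KO and at 233, 229 and 232 CPM in WT. The WT libraries were nearly level, with a coefficient of variation of 1.04%, while KO replicate 1 exceeded the other KO libraries. The log2 fold change was 0.20 (SE 0.07, 95% interval 0.03 to 0.37, edgeR adjusted p = 0.256), and 0.12 without KO replicate 1.

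Nr4a2 (NURR1), on chromosome 2 (57106830 to 57124003), was the lowest of the 10, at 22.2, 27.8 and 25.8 CPM in KO and 39.8, 19.2 and 20.0 CPM in WT. A single library, WT replicate 1, lay above all others, and the remaining WT libraries lay below every KO library. Its log2 fold change was -0.06 (SE 0.29, 95% interval -0.76 to 0.65, edgeR adjusted p = 0.948) and turned to 0.36 (SE 0.10, adjusted p = 0.18) without WT replicate 1. Without WT replicate 1 and KO replicate 1 together, Nr4a2 passed as higher in KO, with 0.45 (SE 0.07, edgeR adjusted p = 0.0106), where 2.43% of tested genes passed upward and 1.78% downward. That fit holds only replicates 2 and 3 of each genotype, and leaves out the WT library with the opposite sign. Its KO pair was the closest of all same-genotype pairs (biological coefficient of variation 2.97%).

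**Figure D2:**
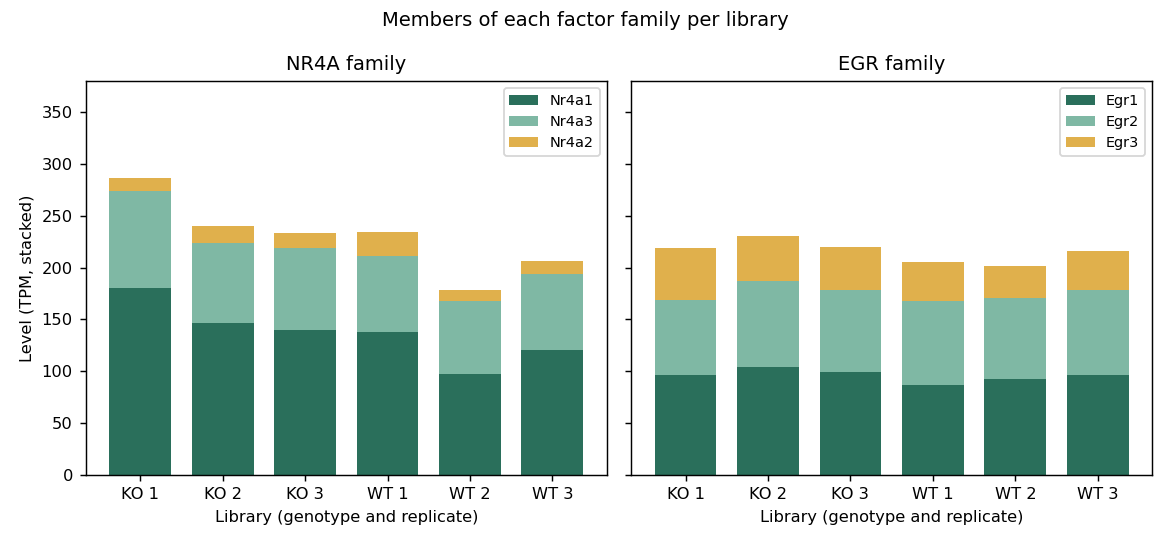
TPM of the NR4A genes (left) and the EGR genes (right), stacked for each library, KO libraries first. The NR4A sum runs from 233 to 287 TPM in KO and from 179 to 234 TPM in WT, and Nr4a1 makes up most of it in every library.

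On the per-length TPM scale, Nr4a1 supplied 63.0, 60.9 and 59.9% of the summed NR4A level in KO replicates 1 to 3 and 58.7, 54.7 and 58.6% in WT replicates 1 to 3. Nr4a2 supplied 4.41 to 6.56% in KO and 5.91 to 10.0% in WT. The share of Nr4a1 was thus above WT in every KO library by a narrow margin, and those of Nr4a2 and Nr4a3 overlapped. The TPM ratio of Nr4a1 to Nr4a3 overlapped as well, at 1.76 to 1.93 in KO and 1.39 to 1.88 in WT, as did the summed NR4A level. How often such shares lack overlap in other gene families was not computed.

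Egr3, a zinc-finger factor that with EGR2 limits TCR responses, had the largest log2 fold change of the 10 and the smallest p. It is on chromosome 14 (70077203 to 70082614, plus strand). Egr3 was at 85.4, 78.6 and 75.2 CPM in KO and at 60.6, 49.8 and 63.1 CPM in WT. Every KO library was above every WT library, with a gap of about the spread within a group. The log2 fold change was 0.46 (SE 0.09, 95% interval 0.24 to 0.68, edgeR adjusted p = 0.0894, DESeq2 adjusted p = 0.000843), and 0.41 without KO replicate 1. On the authors' TPM the difference was smaller, 0.36 on the log2(TPM + 1) scale, with 50.9, 44.3 and 42.3 TPM in KO and 37.8, 30.8 and 37.9 TPM in WT. The length implied by counts over TPM, relative to each library's median gene, was 1.13, 1.198 and 1.197 for Egr3 in KO and 1.10, 1.08 and 1.14 in WT, so the scales treat this gene differently between libraries. Within 1 Mb of Egr3, 26 other genes were tested, and 3 rose, Gm16867, Entpd4 and Entpd4b, near-identical or overlapping copies whose levels are uncertain. Of these 26 neighbours 18 were above 0, with a median log2 fold change of 0.11. Whether the place of Egr3 on the chromosome plays a part was not tested.

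Egr1, the best-known immediate early gene of the family, is on chromosome 18 (34859823 to 34864984). Egr1 was at 172.5, 188 and 179 CPM in KO and at 154, 168 and 172 CPM in WT. The groups nearly touched in CPM, and they overlapped in TPM. Its log2 fold change was 0.13 (SE 0.06, 95% interval -0.02 to 0.27, edgeR adjusted p = 0.382).

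Egr2, on chromosome 10 (67535475 to 67542188), was at 108, 128 and 122 CPM in KO and at 116, 125 and 122 CPM in WT. The libraries of both genotypes were interleaved, with KO replicate 1 the lowest. The log2 fold change was -0.02 (SE 0.07, 95% interval -0.19 to 0.14, edgeR adjusted p = 0.907). The interval leaves out changes as large as the one estimated for Egr3.

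Within the family, the ratio of Egr3 to Egr2 in TPM was 0.705, 0.538 and 0.539 in KO and 0.466, 0.392 and 0.464 in WT, higher in all 3 KO libraries, a ratio chosen after its values were seen. The share of Egr1 in the summed EGR level overlapped, at 43.8 to 45.2% in KO and 42.1 to 45.7% in WT. That of Egr2 was lower in every KO library, at 32.9 to 35.6% against 37.8 to 39.5% in WT. That of Egr3 was higher in every KO library, at 19.2 to 23.2% against 15.3 to 18.4% in WT. The summed EGR level was 219 to 231 TPM in KO and 202 to 216 TPM in WT. How often such shares and sums lack overlap in other gene families was not computed.

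Irf4, which encodes the factor that scales with TCR signal, had the highest counts of the 10. It is on chromosome 13 (30749226 to 30766976). Irf4 was at 840.4, 1074 and 1011 CPM in KO and at 1220.3, 1171 and 1089 CPM in WT. The KO libraries were all lower, most of all KO replicate 1, while KO replicate 2 came close to WT replicate 3. The log2 fold change of -0.25 (SE 0.09, 95% interval -0.47 to -0.04) had an edgeR adjusted p of 0.268, and it was -0.15 without KO replicate 1. All 7 tested neighbours of Irf4 within 1 Mb had log2 fold changes below 0 (median -0.08), and none passed.

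Myc, which encodes a transcription factor that drives cell growth, on chromosome 15 (61985391 to 61990374), was at 378, 389 and 380.1 CPM in KO and at 347, 365 and 377 CPM in WT. KO replicate 1 exceeded WT replicate 3 by a narrow margin, and in TPM the groups overlapped. Its log2 fold change was 0.08 (SE 0.05, 95% interval -0.04 to 0.19, edgeR adjusted p = 0.524).

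Cd5, a scavenger-receptor protein whose surface level tracks TCR signal, is on chromosome 19 (10717116 to 10739002, minus strand). Cd5 was at 380.2, 475 and 450.3 CPM in KO and at 586, 598 and 527 CPM in WT. All KO libraries were below all WT libraries, and KO replicate 1 was the lowest. The log2 fold change was -0.39 (SE 0.09, 95% interval -0.60 to -0.18, edgeR adjusted p = 0.121, DESeq2 adjusted p = 0.00261), and -0.30 without KO replicate 1. None of its 30 tested neighbours within 1 Mb passed by edgeR. Cd6, a related receptor gene among them, was at -0.30 (SE 0.06, edgeR adjusted p = 0.094, DESeq2 adjusted p = 0.00138), chosen after its value was seen.

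Cd69, the early activation marker on chromosome 6 (129267325 to 129275436, minus strand), was at 101, 141 and 129 CPM in KO and at 116, 167 and 132 CPM in WT. The groups overlapped and replicate 2 was the highest in each. Its log2 fold change was -0.16 (SE 0.17, 95% interval -0.55 to 0.23, edgeR adjusted p = 0.689), and it was -0.0045 without WT replicate 2 and -0.03 without KO replicate 1. Of 20 tested neighbours 1 rose, Clec7a, a receptor gene of myeloid cells (log2 fold change 1.96, edgeR adjusted p = 0.0337).

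**Figure D3:**
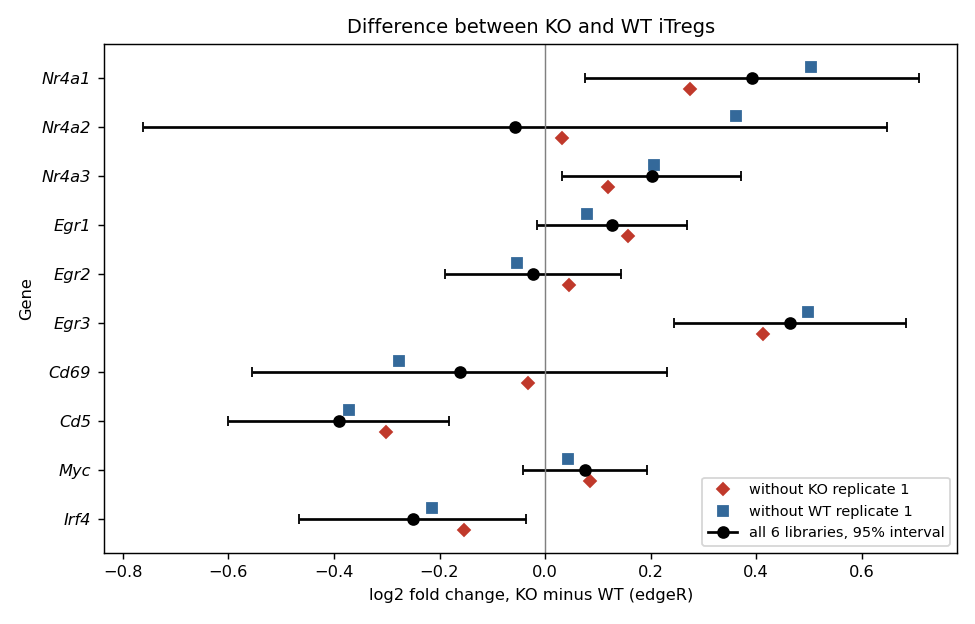
edgeR log2 fold change (KO minus WT) of each gene with its 95% interval over all 6 libraries, and the estimates without KO replicate 1 and without WT replicate 1. The intervals of Nr4a1, Nr4a3, Egr3, Cd5 and Irf4 leave out 0 before adjustment, and the Nr4a2 estimate moves to 0.36 without WT replicate 1.

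Compared by replicate number, 5 genes were higher in KO in all 3 pairs (Nr4a1, Nr4a3, Egr1, Egr3 and Myc), 3 were lower in all 3 (Cd69, Cd5 and Irf4), and 2 were mixed. Over all tested genes, 21.9% were higher in KO in all 3 pairs and 20.4% were lower. For Egr3 the differences were 0.49, 0.66 and 0.25 on the log2 scale for replicates 1 to 3. For Cd5 they were -0.62, -0.33 and -0.23. For Nr4a2 they were -0.84, 0.53 and 0.37. With the replicate number as a block no gene of the 10 passed either, the smallest adjusted p by edgeR being that of Egr3, at 0.081, while the calls over all genes were 134 higher and 43 lower, or 1.05% and 0.337% of tested genes.

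In order of level on the TPM scale, the KO libraries had Cd5 first at 371 ± 39.9, then Irf4 at 357 ± 43.4 and Myc at 352 ± 4.75 (SD, n = 3), whose ranges overlapped. In WT the same 3 genes led without overlap, at 483 ± 24.7, 426 ± 24.0 and 333 ± 14.5 TPM. Next came Nr4a1 and Cd69, at 155 ± 22.04 and 131 ± 20.6 TPM in KO and at 119 ± 20.1 and 147 ± 23.7 TPM in WT, with overlapping ranges in each genotype. Egr1 followed at 99.95 ± 4.13 TPM in KO and 91.8 ± 4.96 TPM in WT. Nr4a3 and Egr2 overlapped in KO, at 83.6 ± 8.62 and 77.7 ± 5.07 TPM, whereas in WT Egr2 was the higher, at 80.6 ± 1.71 against 72.2 ± 1.81 TPM for Nr4a3. Egr3 and Nr4a2 closed the order in both genotypes, at 45.8 ± 4.54 and 14.2 ± 1.54 TPM in KO and at 35.5 ± 4.07 and 15.5 ± 6.91 TPM in WT.

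Likeness was searched over 7799 other genes whose log2 CPM averaged 4 or more. Those whose levels over the 6 libraries were most like the mean standardised NR4A level were Cd27 (Pearson's r 0.997), Rhobtb2 (0.984) and Srpk1 (0.983). Cd27, a costimulatory receptor of the TNF family, was at 81.8, 66.8 and 66.3 CPM in KO and at 71.5, 46.0 and 53.1 CPM in WT. Most like the EGR mean were Stag2 (0.988), Cep43 (0.986) and Rbis (0.985). With 6 libraries and this many genes searched, such values describe the libraries and carry no test.

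Of 14 lists of TCR pathway genes, holding 236 distinct tested genes, 2 genes rose (0.847%, beside 0.454% of all tested genes) and 1 fell (0.424%, beside 0.219%). DESeq2 called 11 of them higher (4.66%, beside 2.87% of all tested genes) and 7 lower (2.97%, beside 1.29%). Those higher were Sla2, Ppp3ca, Trac, Trat1, Rasgrp1, Rnf128, Klf4, Ikzf3, Klf2, Klf3 and S1pr1. Those lower were Ikzf2, Cd4, Cd6, Dok2, Izumo1r, Zbtb17 and Odc1. The counts given below for each list are by edgeR. Sla2, which encodes an adaptor that dampens TCR signalling with CBL, rose to 19.9 ± 0.21 CPM in KO, against 12.8 ± 0.878 CPM in WT (log2 fold change 0.63, SE 0.07, edgeR adjusted p = 0.0187). Ppp3ca, the catalytic subunit alpha of calcineurin, rose to 29.8 ± 1.2 CPM in KO, against 19.8 ± 0.859 CPM in WT (0.59, SE 0.06, adjusted p = 0.0125). Ikzf2, which encodes the Treg factor Helios, fell to 22.1 ± 0.824 CPM in KO, against 32.9 ± 3.77 CPM in WT (-0.57, SE 0.09, adjusted p = 0.0366), all SD with n = 3. Leaving out any 1 of replicates 2 and 3 of KO or WT ended each of these calls, with edgeR adjusted p from 0.0556 to 0.155, and Ikzf2 also without KO replicate 1 (0.0992). Summing KO replicates 2 and 3 as 1 library ended all 3 calls too (0.0789 for Sla2, 0.0628 for Ppp3ca and 0.113 for Ikzf2), and limma on log2(TPM + 1) ended those of Ppp3ca (0.0578) and Ikzf2 (0.0592). Where a call was lost, the log2 fold change stayed between 0.58 and 0.67 for Sla2, between 0.48 and 0.62 for Ppp3ca and between -0.64 and -0.47 for Ikzf2. Without KO replicate 1 the log2 fold changes were 0.63 for Sla2, 0.58 for Ppp3ca and -0.55 for Ikzf2.

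**Figure D4:**
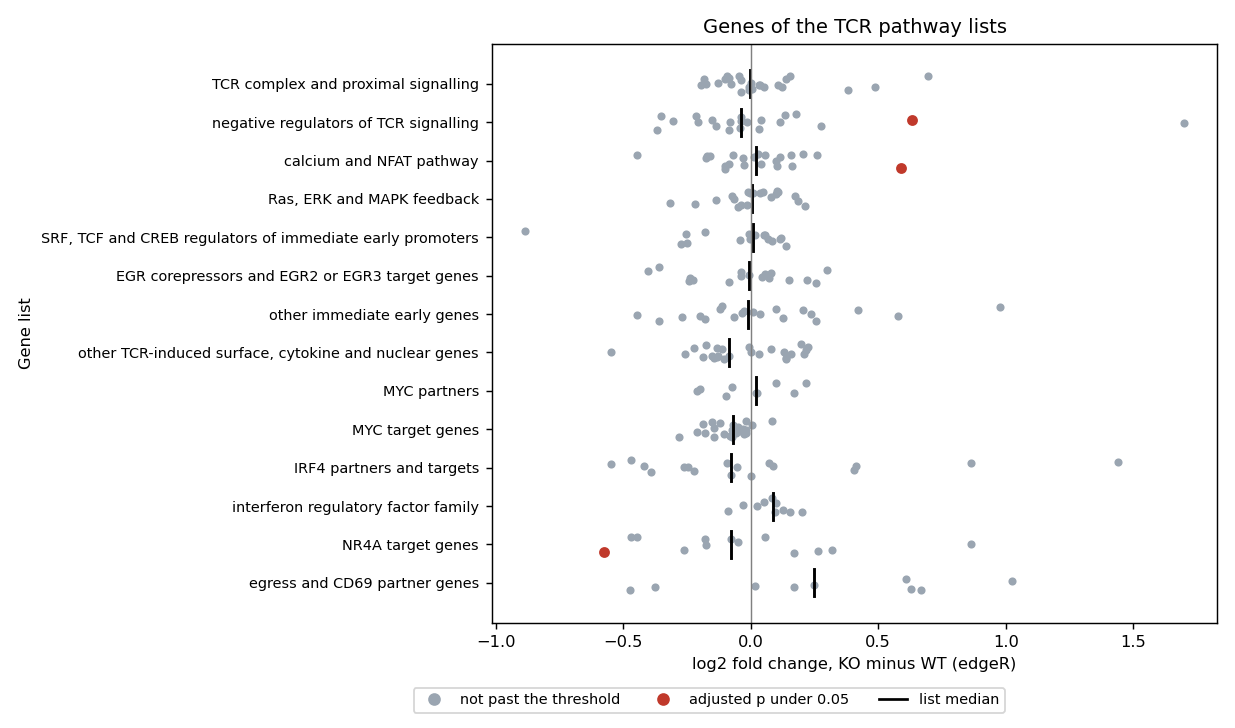
edgeR log2 fold changes (KO minus WT) of the tested genes in each of 14 lists, with the list median as a black bar and genes past the adjusted threshold in red. Sla2 and Ppp3ca stand to the right at 0.63 and 0.59, and Ikzf2 stands to the left at -0.57.

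Upstream of the factors, the TCR complex and proximal signalling genes had 0 of 26 past the threshold and a median log2 fold change of -0.00, beside -0.00 over all tested genes. Trat1, a TCR-associated adaptor, was at 0.69 (SE 0.14, edgeR adjusted p = 0.094). Trac, the TCR alpha constant gene, was at 0.49 in counts (SE 0.11, adjusted p = 0.111) but at 0.01 on the log2(TPM + 1) scale, with 892 to 936 TPM in KO and 855 to 948 TPM in WT. In this list DESeq2 called 3 genes higher (Trac, Trat1 and Rasgrp1) and 1 lower (Cd4). Of the negative regulators of TCR signalling 1 of 21 rose, Sla2, and 0 fell (median -0.04). In this list DESeq2 also called Rnf128 higher, and Cd6 and Dok2 lower. Rnf128 was at 1.70 (SE 0.33, edgeR adjusted p = 0.083, DESeq2 adjusted p = 0.00131), from low means of 2.10 CPM in KO and 0.653 CPM in WT. In the calcium and NFAT pathway 1 of 22 rose, Ppp3ca, and 0 fell (median 0.02). The Ras, ERK and MAPK feedback list had 0 of 20 (median 0.00), where Dusp4, an ERK phosphatase, was at -0.32 and Rasa1, a Ras GTPase-activating protein, at 0.19. Regulators of immediate early promoters (SRF, its partners and CREB factors) had 0 of 16 (median 0.01), with Elk3 at -0.25 and Hdac7 at -0.18.

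Beside and below the factors, other immediate early genes had 0 of 20 past the threshold and a median of -0.01, with Klf4 at 0.98 (SE 0.20, edgeR adjusted p = 0.0897) from low levels of 3.27 CPM in KO and 1.66 CPM in WT, and Klf10 at 0.23. The EGR corepressors and EGR2 or EGR3 targets had 0 of 17 (median -0.01), with Socs1, a cytokine signalling inhibitor, at 0.26 and the cell cycle inhibitor gene Cdkn1b at 0.15. Of the NR4A target genes 1 of 13 fell, Ikzf2, and 0 rose (median -0.08). Other TCR-induced genes had 0 of 25 (median -0.08), with the chemokine gene Xcl1 at 0.22 and Phlda1 at -0.26. IRF4 partners and targets had 0 of 17 (median -0.08), with Ikzf3, which encodes Aiolos, at 0.41 (SE 0.07, edgeR adjusted p = 0.0572) and Pdcd1, which encodes PD-1, at -0.26. The other interferon regulatory factors had 0 of 10 (median 0.09), with Irf2 at 0.10 and Irf9 at 0.15.

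MYC partners had 0 of 9 past the threshold (median 0.02), with Zbtb17, which encodes the MYC partner MIZ1, at -0.21 and Mxi1 at -0.20. The MYC target genes had 0 of 24 and a median of -0.07, with 22 of 24 below 0, where 50.9% of all tested genes were. Odc1, the polyamine enzyme gene, was at -0.28 and Cdk4 at -0.18. The median of this list was -0.03 without KO replicate 1, -0.03 without WT replicate 1 and 0.01 without both. Genes of egress and CD69 partners had 0 of 9 and the highest median of the lists, 0.25, with Klf2, a quiescence factor that drives S1pr1, at 1.02 (SE 0.24, edgeR adjusted p = 0.146) and Klf3 at 0.61. DESeq2 called 3 genes of this list higher, Klf2, Klf3 and S1pr1. Klf2 was at 177, 107 and 124 CPM in KO and at 55.3, 59.6 and 85.2 CPM in WT, so every KO library was above every WT library. It was highest in KO replicate 1, which held male cells and had the highest neutrophil and macrophage marker sums. The part of these features in the level of Klf2 was not tested. Without KO replicate 1 the median of the list was 0.15 and Klf2 was at 0.79 (edgeR adjusted p = 0.168).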

How the data were processed

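Per the submitters' processing notes, reads were checked with FastQC and aligned with HISAT2. The counting program, genome build and annotation: not given in the sources used here. The authors deposited 1 table of estimated counts and 1 of TPM (a length-scaled level) for each sample, per the file headers. From 23.5 to 25.2% of genes per library had counts that were not whole, although those of all 10 genes reported here were. Counts were rounded, filtered by edgeR's filterByExpr (12768 genes kept of 21899) and scaled by TMM (factors 0.988 to 1.01). The two-sided quasi-likelihood test of edgeR 4.0.16 (R 4.3.3) compared the genotypes, with no other term and with Benjamini-Hochberg adjustment over all tested genes. Standard errors come from the F statistic, and intervals are at 95%. DESeq2 1.42.0 and limma 3.58.1 served for alternatives. No value of a single gene was tested by permutation of the libraries, since 3 against 3 cannot go below a two-sided exact p of 0.1.

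The 10 genes and the 14 lists were chosen with earlier results of these data known, and some genes stand in more than 1 list. Named in each list are up to 4 genes past the threshold, or the 2 of smallest p. Also named are the 3 genes most like each factor family. Clec7a, Gm16867, Entpd4, Entpd4b, Cd4, Cd6, Dok2, Izumo1r, Rasgrp1, Rnf128, S1pr1, Ddx3y, Eif2s3y, Kdm5d and Uty were chosen after their values were seen. The list symbols Folr4 and Miz1 were not matched. Same-numbered KO and WT libraries deviated together from their group means over genes averaging 2 or more in log2 CPM (correlations 0.192, 0.172 and 0.137), so the fit with that block is given too. This pairing comes from the data, not from the labels. KO replicate 3 with WT replicate 2 was also positive, at 0.122, and KO replicate 2 with WT replicate 3 was at 0.057. Pairings of a replicate 1 with another number lay between -0.178 and -0.107. The numbers thus set replicate 1 apart but do not clearly match replicates 2 and 3. KO replicates 2 and 3 were the closest pair (biological coefficient of variation 2.97%, where other same-genotype pairs had 7.12 to 14.8%) but differed by more than sampling noise. GENCODE M21 (GRCm38), which need not be the authors' annotation, gave positions. Figures were drawn with matplotlib 3.10.9.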

Additional observations from a re-analysis of the deposited data

How the results depend on the processing

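Nr4a1, Nr4a3, Egr1, Egr3, Myc, Cd69, Cd5 and Irf4 kept the sign of their log2 fold change in all 15 alternatives. Nr4a2 turned to 0.013 with the replicate block, 0.03 without KO replicate 1, 0.36 without WT replicate 1 and 0.45 without both, and its leave-one-out values ran from -0.24 to 0.36. Egr2 turned to 0.046 without KO replicate 1, 0.0025 without WT replicate 2 and 0.02 without KO replicate 1 and WT replicate 1, with leave-one-out values from -0.076 to 0.046. The count of the 10 past the threshold was 2 with DESeq2 (Egr3 at 0.46, Cd5 at -0.39) and 1 without KO replicate 1 and WT replicate 1 (Nr4a2). The block changed no call of the 10. The number of genes higher and lower in KO was 58 and 28, against 367 and 165 with DESeq2, 134 and 43 with the replicate block, 311 and 227 without KO replicate 1 and WT replicate 1, and 6 and 2 with KO replicates 2 and 3 summed. It was 92 higher with no low-count filter. Leaving out 1 library gave 3 to 56 higher and 1 to 40 lower. The cause of these shifts was not tested. List medians moved by no more than the spread between libraries in 189 of 210 alternatives. Of the named list genes, Irf9 reached a value below 0 (-0.0060).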

Other observations

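The length implied by counts over TPM, relative to each library's median gene, differed between genotypes by a log2 difference of 0.08 for Egr3, more than for 92.8% of 9946 genes with at least 100 counts in every library. For the other 9 genes the difference lay between -0.03 and 0.04, beside a median size of 0.01 over those genes. The Egr3 values of KO and WT overlapped, at 1.13 to 1.198 in KO and 1.08 to 1.14 in WT. Those of Nr4a1, Nr4a3, Egr1, Cd5, Myc and Irf4 were lower in every KO library than in every WT library, and those of the remaining genes overlapped. Implied lengths lacked overlap in 43.9% of genes, so a lack of overlap in this measure is common in these libraries.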
